A study of Arabidopsis thaliana with 12 samples.

Results

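The seed coat mucilage genes are 10 genes of Arabidopsis thaliana that switch on, build or remodel the mucilage of the seed coat. They were taken by gene identifier from the 26925 genes listed in each table, and all 10 passed the filter of 1 TPM in no fewer than 3 libraries (TPM is transcript abundance scaled by gene length and library total). Among them, 3 are transcription factors: MYB5 (AT3G13540), TTG2 (AT2G37260) and GL2 (AT1G79840). Another set makes the polysaccharides: MUM4 (AT1G53500), MUCI21 (AT3G10320) and CESA5 (AT5G09870). The remaining 4 act in the wall and the mucilage itself: MUM2 (AT5G63800), SBT1.7 (AT5G67360), PMEI6 (AT2G47670) and PER36 (AT3G50990).

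Total RNA was sequenced in bulk from hand-dissected siliques, in 4 groups of 3 libraries: lhp1-6 seed, Col-0 seed, lhp1-6 fruit and Col-0 fruit. Col-0 is the wild type, and lhp1-6 is a mutant of LHP1, a chromodomain protein of the Polycomb system. Fruit is what was left of the silique once the seeds were out, and each library was a pool of 3 to 5 siliques taken when the embryo had bent cotyledons, 14 to 15 days after pollination. Both genotypes were moved after bolting, from 22 °C to a regime of 16 °C days and 14 °C nights. Whether different pools came from different plants is not in the labels, and the spread behind each p-value may thus be in part technical.

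Mucilage is a pectin, mostly rhamnogalacturonan I, that the outermost cells of the seed coat secrete into a pocket under their outer wall and that swells out of the seed when it is wetted. In these cells a complex of the WD40 protein TTG1, bHLH factors and MYB proteins such as MYB5 activates TTG2 and GL2, and GL2 activates MUM4, which makes the rhamnose of the pectin backbone. Xylan branches and cellulose anchor the inner mucilage to the seed, and enzymes of the wall decide whether the pectin can expand and whether the outer wall breaks.

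LHP1 checked the genotype labels, with 0.310, 0.370 and 0.382 TPM in lhp1-6 seed, against 20.8, 23.7 and 21.3 TPM in Col-0 seed. In fruit it had 0.817, 0.858 and 0.699 TPM in lhp1-6, against 15.3, 17.5 and 17.97 TPM in Col-0. The 5 fruit wall and valve margin markers summed to between 8.86 and 12.2 TPM in the seed libraries and to between 359 and 605 TPM in the fruit libraries. To estimate a share of seed RNA in the fruit libraries, fruit TPM were divided by mean seed TPM for genes that had 50 TPM or more in all 3 seed libraries, and the percentile 1 of these ratios was taken. It was 8.32%, 10.97% and 9.12% in lhp1-6 fruit, against 23.3%, 3.65% and 5.59% in Col-0 fruit. Low expression in fruit itself gives low ratios too, storage gene CRU2 was at 0.61% in Col-0 fruit replicate 3, and whether seed RNA was carried over was not tested. Replicate 1 of Col-0 fruit stood apart from the other 2, and where a call or a sign in fruit changes without it, both values are given. Genes for seed storage proteins and oil bodies (12 genes) took from 4.50% to 11.8% of the listed TPM in lhp1-6 seed and from 1.13% to 1.85% in Col-0 seed. Since TPM add up to a fixed total, these shares bear on all other values.

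**Figure D1:**
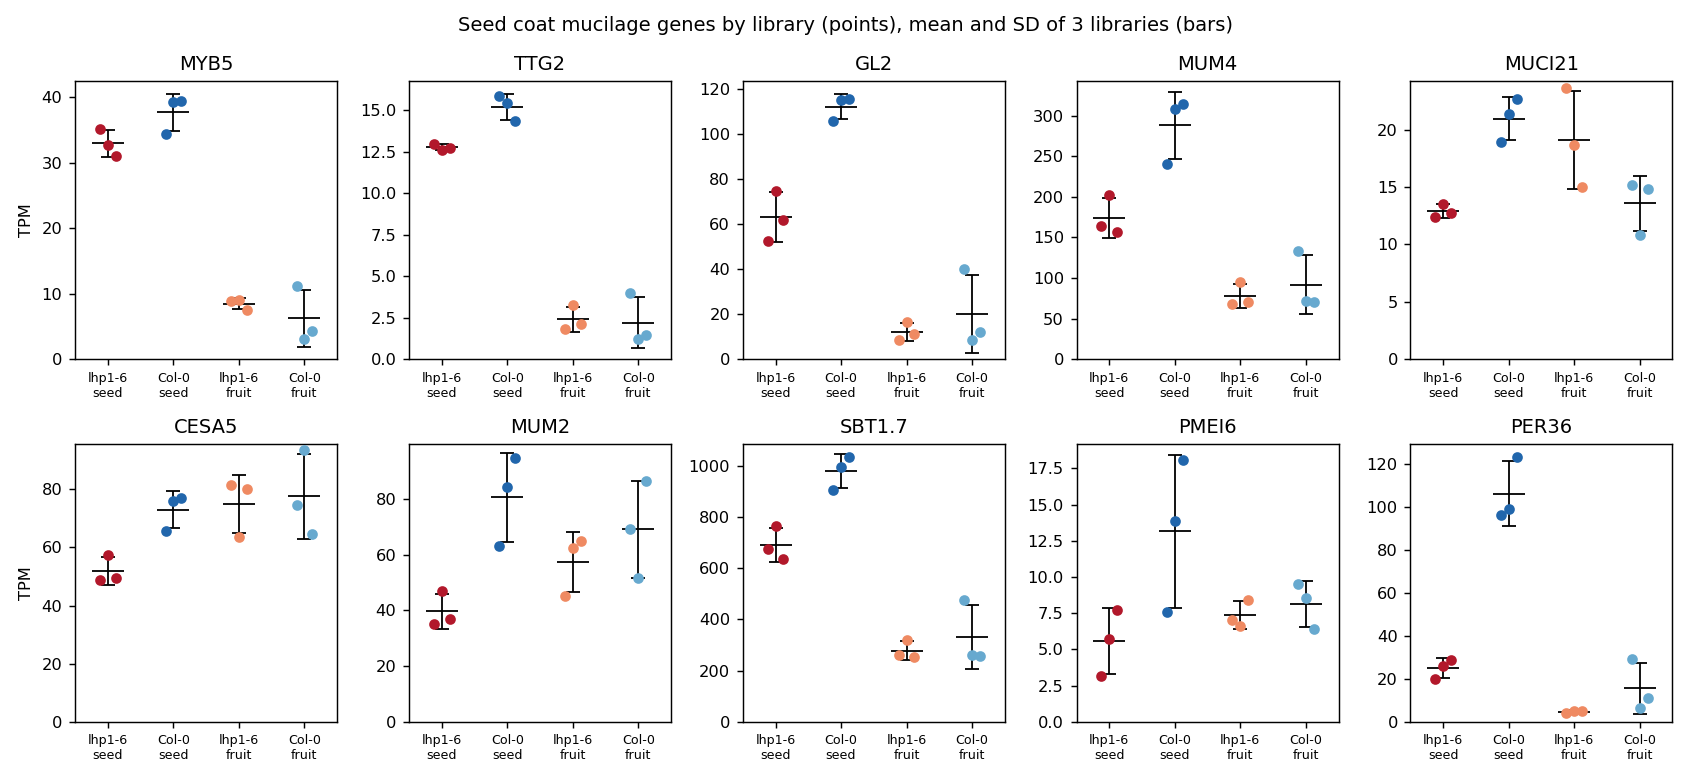
TPM of the 10 mucilage genes, 1 panel per gene, in lhp1-6 seed, Col-0 seed, lhp1-6 fruit and Col-0 fruit. Points are libraries and bars are the mean and SD of 3 libraries. PER36 averaged 24.8 TPM in lhp1-6 seed and 106 TPM in Col-0 seed, and replicate 1 is the highest Col-0 fruit library for 8 genes.

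In seed, 5 of the 10 mucilage genes fell in lhp1-6 and none rose by limma. The mean TPM of each of the 10 was lower, between 23.4% and 87.4% of the Col-0 mean, and the libraries of the genotypes did not overlap for 8 of the 10 (of all tested genes, 41.5% had non-overlapping libraries lower in lhp1-6). The 5 that passed the test, limma on log2(TPM + 1) with p-values adjusted over all tested genes and a threshold of 0.05, were PER36, PMEI6, MUM2, MUCI21 and CESA5. At an unadjusted p under 0.05 there were 7 lower and 0 higher. Of all 19946 tested genes, 12.1% were called in seed, with 10.2% lower and 1.85% higher. The median change of the 10 was -0.69 on the log2 scale, and that of all tested genes was -0.15. In bulk libraries, fewer seed coat cells in the pool and less RNA per seed coat cell cannot be told apart.

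The 3 largest changes were in genes that act in the wall. PER36, a class III peroxidase that in Arabidopsis loosens the outer wall of the mucilage cell so that it can break, had 19.9, 25.7 and 28.9 TPM in lhp1-6 seed, against 96.1, 98.9 and 123 TPM in Col-0 seed. Even the highest lhp1-6 library was far under the lowest Col-0 library. The change was -2.06 on the log2(TPM + 1) scale (SE 0.39, adjusted p = 0.00966), or -1.91 relative to the median of all tested genes. PER36 was called lower in seed under each of the 17 alternatives run, with adjusted p from 0.000724 to 0.0493.

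MUM2, a beta-galactosidase that trims side chains of rhamnogalacturonan I and so lets mucilage swell, had 35.0, 46.9 and 36.8 TPM in lhp1-6 seed, against 63.2, 84.2 and 94.5 TPM in Col-0 seed. The groups did not overlap, and the lhp1-6 mean was 49.1% of the Col-0 mean. Its change was -1.001 (SE 0.21, adjusted p = 0.0163), or -0.85 relative to the median of all tested genes. The MUM2 call was lost in 6 of 17 alternatives. PMEI6, an inhibitor of pectin methylesterases, had 3.19, 5.71 and 7.75 TPM in lhp1-6 seed, against 7.57, 13.9 and 18.1 TPM in Col-0 seed. Here the highest lhp1-6 library lay just over the lowest Col-0 library, and both groups spread widely. PMEI6 changed by -1.10 (SE 0.31, adjusted p = 0.0439), a call that 10 of 17 alternatives lost.

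SBT1.7, a secreted subtilisin-like protease that is needed for mucilage release, was the most abundant of the 10 genes in every group. It had 677, 765 and 634 TPM in lhp1-6 seed, against 908, 998 and 1034 TPM in Col-0 seed. All 3 lhp1-6 libraries were below all 3 Col-0 libraries, and the test across all groups did not call it (-0.50, SE 0.21, adjusted p = 0.144).

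Among the genes of polysaccharide synthesis, 2 of 3 passed. MUCI21, a xylosyltransferase that adds xylose branches to the pectin, had 12.4, 13.6 and 12.8 TPM in lhp1-6 seed, against 18.9, 21.3 and 22.6 TPM in Col-0 seed. The lhp1-6 libraries lay close together and under all Col-0 libraries. MUCI21 changed by -0.66 (SE 0.16, adjusted p = 0.0264), a call that 8 of 17 alternatives lost, while 1 more turned the sign. CESA5, a cellulose synthase subunit that makes the cellulose rays of the mucilage, had 48.8, 57.3 and 49.3 TPM in lhp1-6 seed, against 65.7, 76.1 and 77.2 TPM in Col-0 seed. There was no overlap, and the change was the smallest of those called (-0.49, SE 0.14, adjusted p = 0.0473). Of 17 alternatives, 11 lost the CESA5 call and 1 more turned its sign.

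MUM4, the rhamnose synthase also known as RHM2, had 164, 202 and 156 TPM in lhp1-6 seed, against 241, 309 and 315 TPM in Col-0 seed. The 2 groups did not overlap, and its change of -0.72 (SE 0.24) missed the threshold with an adjusted p of 0.0701.

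None of the 3 transcription factors passed limma in seed, and 0 had an unadjusted p under 0.05. GL2, a homeodomain factor of epidermal cells, had 52.5, 74.6 and 61.7 TPM in lhp1-6 seed, against 105, 115 and 115 TPM in Col-0 seed. These groups were well apart, with a lhp1-6 mean at 56.2% of the Col-0 mean. The fit shares 1 estimate of the spread over all 4 groups, and the coefficient of variation of GL2 was 17.6% in lhp1-6 seed and 5.05% in Col-0 seed, but 85.7% in Col-0 fruit. Its change was -0.83 (SE 0.43, adjusted p = 0.226).

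TTG2, a WRKY factor, had 12.96, 12.6 and 12.7 TPM in lhp1-6 seed, against 15.9, 15.4 and 14.3 TPM in Col-0 seed. MYB5, the MYB factor upstream of GL2 and TTG2, had 35.2, 32.7 and 31.0 TPM in lhp1-6 seed, against 34.4, 39.2 and 39.5 TPM in Col-0 seed. TTG2 had no overlap between genotypes and MYB5 did, and both had the mildest ratios of the 10, at 83.9% and 87.4% of the Col-0 mean. Their changes were -0.23 (95% interval -0.81 to 0.34) and -0.19 (95% interval -0.85 to 0.48).

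**Figure D2:**
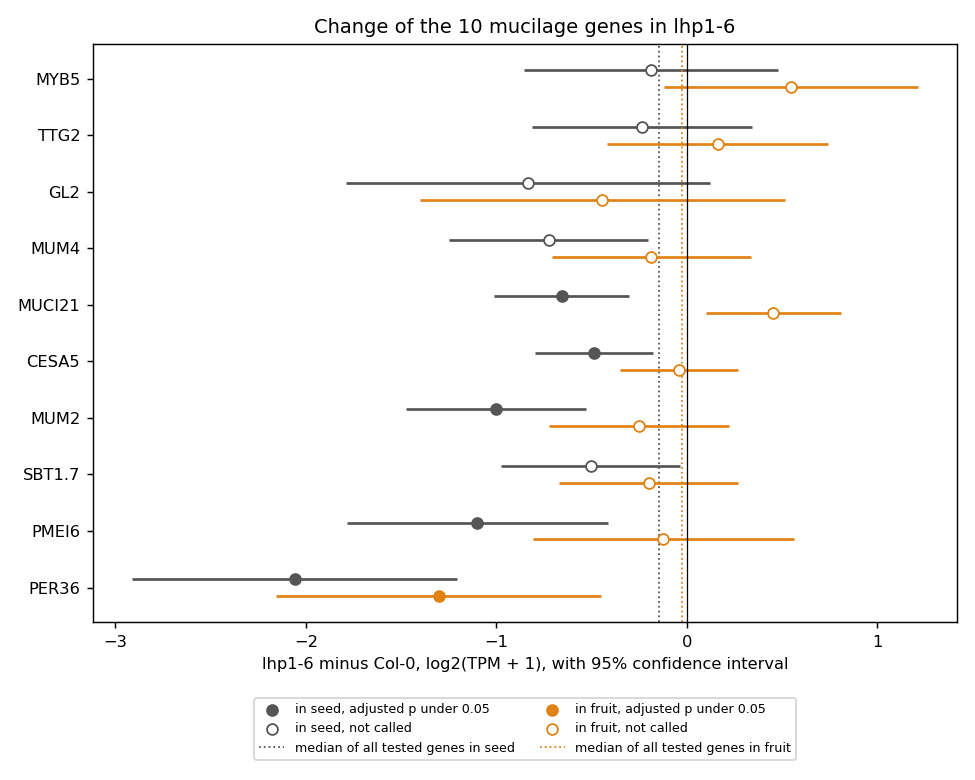
Change of each mucilage gene in lhp1-6 relative to Col-0, in seed and in fruit, in log2(TPM + 1), with 95% confidence intervals. Filled points passed an adjusted p of 0.05 and dotted lines mark the median of all tested genes; in seed all 10 points lie left of 0, and in fruit PER36 is the one filled point.

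How many of these genes passed in seed depended on how the libraries were fitted and scaled, and the share of all tested genes called moved as well. When the 6 seed libraries were fitted alone, 9 of 10 were lower, all but MYB5, and 31.3% of all genes tested in that fit were called. After rescaling each library by the median of its gene ratios, which brings the median of all tested genes to 0.00, PER36 alone was still called, with 4.96% of all tested genes, and MUM2 (-0.83) had an adjusted p of 0.0541. With storage and organelle genes removed from the TPM total, 2 genes were called, PER36 and MUM2, with 5.93% of all tested genes. Leaving out single seed libraries gave between 1 and 4 called genes, with PER36 called each time. Without lhp1-6 seed replicate 1 or 3, or without Col-0 seed replicate 2 or 3, PER36 was the one gene left, and between 3.2% and 4.84% of all tested genes were called.

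Markers of another seed coat layer were read beside these genes. The endothelium is the innermost seed coat layer and makes the tannins, and its 6 markers summed to between 1128 and 1198 TPM in lhp1-6 seed and to between 1812 and 1976 TPM in Col-0 seed. BAN, an anthocyanidin reductase, had 368, 413 and 386 TPM in lhp1-6 seed, against 761, 772 and 922 TPM in Col-0 seed. TT10, a laccase, had 730, 753 and 732 TPM in lhp1-6 seed, against 999, 992 and 1001 TPM in Col-0 seed.

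Neither BAN (-1.07, adjusted p = 0.257) nor TT10 (-0.43, adjusted p = 0.51) was called. Of the factors TT16 and TT1 and the proton pump AHA10, the changes were -0.88, -0.65 and -0.62, with adjusted p of 0.107, 0.144 and 0.0821. TT12, a transporter of tannin precursors, was called lower (-0.70, adjusted p = 0.0477), at no more than 3.07 TPM in any library, a call that 11 of 16 alternatives lost. With the 6 seed libraries fitted alone all 6 markers were called lower, when 31.3% of all genes tested were called. All 6 changes were negative, with a median of -0.68, close to that of the mucilage genes.

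When each of the 12 libraries was scaled to these 6 markers, a step chosen after seeing the data, PER36 was still called lower in seed. Its change was -1.33 (adjusted p = 0.0207), and 2.06% of all tested genes were called. The fruit libraries, scaled in the same way, enter the spread behind this seed test. The other 9 genes were not called and had changes between -0.38 and 0.54, with the median of all tested genes at 0.58. Endosperm markers, 4 of 5 tested, gave no call by limma (1 lower at an unadjusted p under 0.05). They summed to between 1389 and 1852 TPM in lhp1-6 seed and to between 1019 and 1581 TPM in Col-0 seed. Most of each sum was EPR1, with 1718, 1242 and 1317 TPM in lhp1-6 seed, against 1415, 874 and 834 TPM in Col-0 seed. Of the 4 tested, 3 had a negative change. ZOU had 22.1, 23.4 and 18.7 TPM in lhp1-6 seed, against 42.3, 36.3 and 38.2 TPM in Col-0 seed. Of the 12 storage and oil body genes 6 were called higher in lhp1-6 seed, CRU3 by 8.50. Replicate 2 of lhp1-6 seed had the lowest storage share of its group and was also its highest library for 6 of the 10 mucilage genes. Its factor in the median-of-ratios rescaling was 1.02, against 0.956 and 0.943 in replicates 1 and 3. How many of all genes were highest in replicate 2 was not counted, so the 6 cannot be read as particular to the mucilage genes. The part of the endothelium and storage levels in the mucilage result was not tested.

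**Figure D3:**
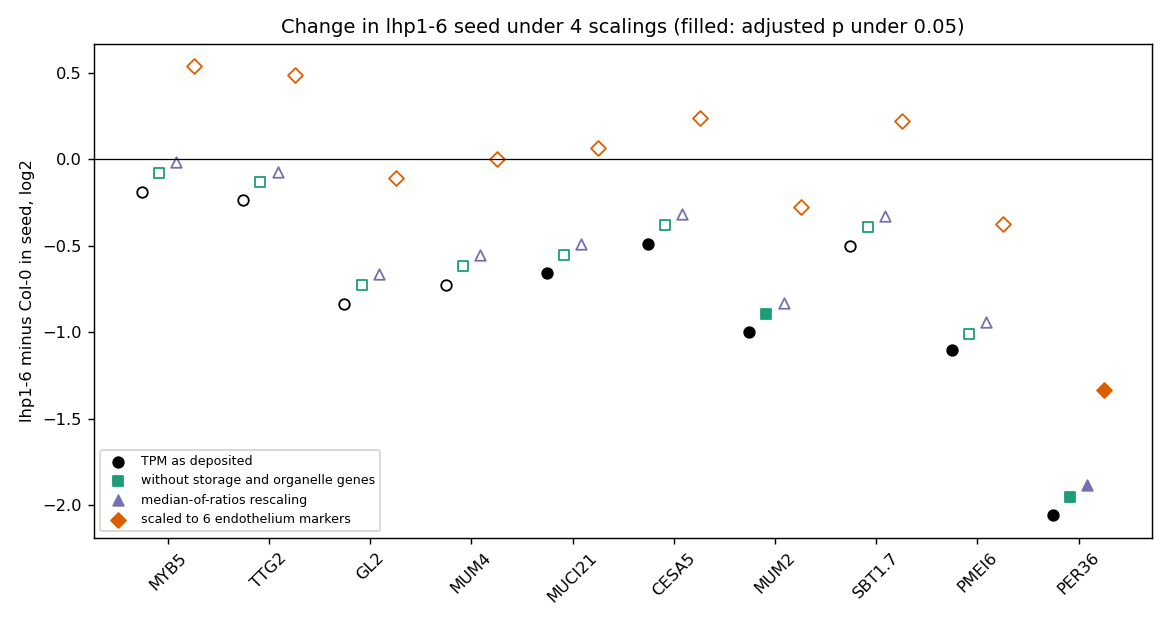
Change in lhp1-6 seed relative to Col-0 seed for the 10 mucilage genes under 4 scalings: TPM as deposited, TPM without storage and organelle genes, median-of-ratios rescaling, and scaling to 6 endothelium markers. Filled symbols passed an adjusted p of 0.05; PER36 is filled under all 4, with values between -2.06 and -1.33.

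Other genes of the mucilage pathway were lower in lhp1-6 seed in part. Of 49 tested, 12 were called lower, 1 was called higher and 36 were not called, with a median change of -0.41. For all tested genes the shares were 10.2% lower and 1.85% higher. Among 20 regulators, 7 fell and 1 rose. TTG1, the WD40 protein of the complex that works with MYB5, had 32.8, 35.9 and 31.1 TPM in lhp1-6 seed, against 46.8, 43.5 and 46.9 TPM in Col-0 seed (-0.45, adjusted p = 0.00851). The homeodomain factors KNAT7 (-0.59, adjusted p = 0.0103), KNAT3 (-0.58, adjusted p = 0.0184) and BLH2 (-0.49, adjusted p = 0.0149) fell as well. The trihelix factor GTL1 was the 1 that rose (0.68, adjusted p = 0.0472), and it is named because of that direction.

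Among 20 other genes of synthesis and secretion, 4 fell. They were the xylan gene IRX14 (-0.45), the glycosyltransferase MUCI70 (-0.41), the galacturonosyltransferase GAUT11 (-0.41) and the rhamnose synthase RHM1 (-0.67), with adjusted p from 0.0227 to 0.0382. RHM1 had 115, 138 and 107 TPM in lhp1-6 seed, against 189, 197 and 185 TPM in Col-0 seed, a difference close in size to that of MUM4. Of 9 genes of modification and adherence, FLY1, a ubiquitin ligase of the endomembranes, was called (-0.40, adjusted p = 0.0446), a call that 13 of 17 alternatives lost.

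These counts moved when single libraries were left out, and so did the share of all tested genes called (12.1% with all libraries). Of the 49, 1 was lower without lhp1-6 seed replicate 3 (3.2% of all tested genes called). Without lhp1-6 seed replicate 1, Col-0 seed replicate 2 or Col-0 seed replicate 3, 2 were lower (3.29%, 4.84% and 3.43%). Without Col-0 seed replicate 1, 6 were lower (6.39%). TTG1 kept its call in each of these. With the 6 seed libraries fitted alone, 30 of 48 tested were lower and 1 was higher, when 31.3% of all genes tested were called. After median-of-ratios rescaling, with 4.96% of all tested genes called, none of the 49 was called lower by limma (15 at an unadjusted p under 0.05). In that setting 35 had a negative change, against 44 with TPM as deposited. After scaling to the endothelium markers 3 of the 49 had a negative change, with the median of all tested genes at 0.58.

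**Figure D4:**
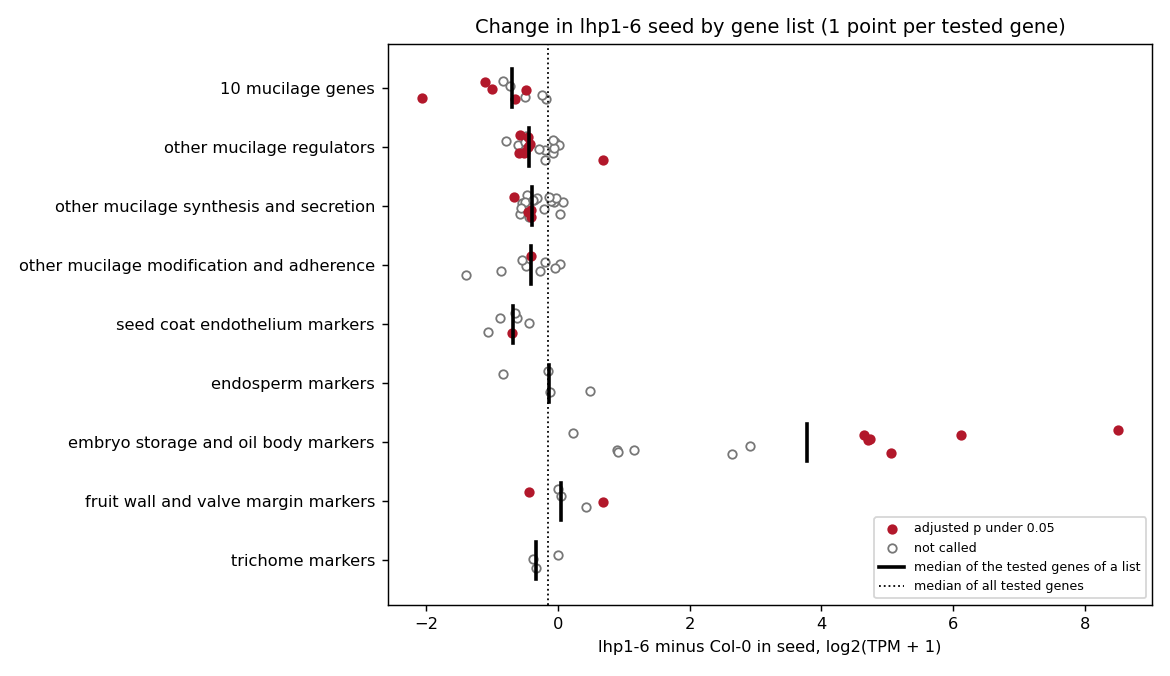
Change in lhp1-6 seed relative to Col-0 seed, log2(TPM + 1), with 1 point per tested gene in rows for the 10 mucilage genes, the other mucilage lists and the marker lists. Red points passed an adjusted p of 0.05, bars are list medians and the dotted line is the median of all tested genes; the mucilage genes have a median of -0.69, the endothelium markers -0.68 and the storage genes 3.79.

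In fruit, 1 of the 10 mucilage genes was called, PER36, which was lower in lhp1-6. Of all tested genes, 14.9% were called in fruit, 9.19% lower and 5.75% higher. PER36 had 3.85, 5.21 and 4.98 TPM in lhp1-6 fruit, against 29.0, 6.56 and 10.9 TPM in Col-0 fruit. It was the 1 gene whose fruit libraries did not overlap between genotypes, where 15.6% of all tested genes did so in that direction. The change was -1.30 (SE 0.39, adjusted p = 0.0458), and without the high Col-0 replicate 1 it was -0.75 (adjusted p = 0.0237). The call was lost without Col-0 fruit replicate 3 and without any 1 of the lhp1-6 fruit libraries. Over all 17 alternatives the adjusted p ran from 0.00949 to 0.185. When the estimated seed share was taken off the fruit libraries the change was -0.61 and was no longer called.

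A pair of regulators and a xylosyltransferase had higher means in lhp1-6 fruit than in Col-0 fruit. MYB5 had 8.94, 8.97 and 7.49 TPM in lhp1-6 fruit, against 11.2, 3.12 and 4.35 TPM in Col-0 fruit. MUCI21 had 23.6, 18.6 and 15.0 TPM in lhp1-6 fruit, against 15.1, 10.8 and 14.8 TPM in Col-0 fruit. TTG2 had 1.81, 3.24 and 2.14 TPM in lhp1-6 fruit, against 3.97, 1.21 and 1.42 TPM in Col-0 fruit.

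With all libraries none of these 3 was called: MYB5 changed by 0.55 (adjusted p = 0.255), MUCI21 by 0.45 (adjusted p = 0.0826) and TTG2 by 0.16 (adjusted p = 0.736). Without that replicate the 3 were called higher in lhp1-6 fruit, by 1.01, 0.54 and 0.53, when 28.5% of all tested genes were called. Taking off the estimated seed share, with all libraries kept, also gave these 3 as higher, by 1.01, 0.58 and 0.48, when 23.9% of all tested genes were called.

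The remaining 6 were not called in fruit. GL2 had 8.62, 16.3 and 11.1 TPM in lhp1-6 fruit, against 40.1, 8.48 and 11.997 TPM in Col-0 fruit, so that a single library held the Col-0 mean above the lhp1-6 mean. Its change was -0.44, and 0.19 without that library. MUM4 had 67.6, 95.3 and 70.9 TPM in lhp1-6 fruit, against 134, 71.8 and 70.2 TPM in Col-0 fruit. SBT1.7 had 260.5, 321 and 252 TPM in lhp1-6 fruit, against 476, 261 and 257 TPM in Col-0 fruit. Both overlapped, and Col-0 replicate 1 was the high library in both. MUM4 changed by -0.19 and SBT1.7 by -0.20, and without that library by 0.12 and 0.0925.

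CESA5 had 81.4, 63.4 and 80.1 TPM in lhp1-6 fruit, against 74.5, 93.4 and 64.8 TPM in Col-0 fruit. MUM2 had 45.1, 62.2 and 64.9 TPM in lhp1-6 fruit, against 69.1, 51.6 and 86.3 TPM in Col-0 fruit. PMEI6 had 7.04, 6.58 and 8.44 TPM in lhp1-6 fruit, against 9.51, 8.54 and 6.41 TPM in Col-0 fruit. For these 3 the libraries of the genotypes were interleaved. Their 95% intervals were -0.35 to 0.27 for CESA5, -0.72 to 0.22 for MUM2 and -0.81 to 0.56 for PMEI6.

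Of the 49 other mucilage genes, 4 fell and 1 rose in lhp1-6 fruit, where 9.19% of all tested genes were called lower and 5.75% higher. NARS1, a NAC factor of the seed coat and the embryo, had 1118, 974 and 985 TPM in lhp1-6 fruit, against 510.1, 601 and 428 TPM in Col-0 fruit (1.01, adjusted p = 0.000527). The 4 that fell belong to synthesis and secretion: MUCI70 (-0.46), the galactosyltransferase MUCI10 (-0.69), IRX14 (-0.41) and the exocyst subunit EXO70A1 (-0.27), with adjusted p from 0.0123 to 0.0369. None of the 6 endothelium markers was called in fruit by limma (0 at an unadjusted p under 0.05), where they summed to between 184 and 231 TPM in lhp1-6 and to between 97.4 and 564 TPM in Col-0. Without Col-0 fruit replicate 1, 6 of the 49 were lower and 8 were higher, with these 5 among them, when 28.5% of all tested genes were called. In that fit the endothelium markers BAN (1.06) and TT10 (0.57) were called higher in lhp1-6 fruit.

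In the main fit, which does not pair libraries by number, the effect of lhp1-6 differed between the tissues for 1 of the 10 genes. For MUCI21 the change in seed minus the change in fruit was -1.11 (SE 0.23, adjusted p = 0.0205), from a change of -0.66 in seed and 0.45 in fruit. Of all tested genes, 5.51% were called in this test, 3.8% lower and 1.72% higher. With same-numbered seed and fruit libraries of a genotype as a block the MUCI21 difference had an adjusted p of 0.0563, and over all 22 alternatives the adjusted p ran from 0.00726 to 0.063. It was not called without lhp1-6 seed replicate 1 or 3, or without Col-0 seed replicate 2 or 3.

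All 10 differences were negative, with a median of -0.64 against -0.14 for all tested genes. PMEI6 (-0.98), PER36 (-0.76), MUM2 (-0.75) and MYB5 (-0.74) came next in size, with adjusted p from 0.17 to 0.439. Leaving out Col-0 fruit replicate 1 raised the number called to 7, all negative, when 20.1% of all tested genes were called. The added genes were MYB5, TTG2, GL2, MUM4, SBT1.7 and PER36. Of the 49 other mucilage genes, NARS1 was called in the difference (-1.52, adjusted p = 0.00112).

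Seed was then set against fruit within each genotype. In Col-0, 7 of 10 were higher in seed than in fruit and 3 were not called (of all tested genes, 83% were called, 45.3% higher and 37.7% lower). PER36 averaged 106 ± 15.0 TPM in Col-0 seed and 15.5 ± 11.9 TPM in Col-0 fruit (SD, n = 3 each), a change of 2.93. GL2 averaged 112 ± 5.66 TPM in Col-0 seed and 20.2 ± 17.3 TPM in Col-0 fruit, a change of 2.72.

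MYB5 (2.58), TTG2 (2.44), MUM4 (1.69) and SBT1.7 (1.62) also rose in Col-0 seed, with adjusted p from 7.37e-06 to 4.74e-05. MUCI21 rose by less (0.60, adjusted p = 0.00457), averaging 21.0 ± 1.895 TPM in Col-0 seed and 13.6 ± 2.41 TPM in Col-0 fruit. CESA5 (-0.07), MUM2 (0.23) and PMEI6 (0.57) were not called, with adjusted p of 0.632, 0.327 and 0.109. CESA5 averaged 73.0 ± 6.35 TPM in Col-0 seed and 77.6 ± 14.5 TPM in Col-0 fruit. Without Col-0 fruit replicate 1 the same 7 genes were called higher, with larger changes (PER36 3.49, GL2 3.35).

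In lhp1-6, 6 of the same genes were higher in seed than in fruit: GL2 (2.33), PER36 (2.18), TTG2 (2.04), MYB5 (1.85), SBT1.7 (1.32) and MUM4 (1.16), with adjusted p from 3.09e-05 to 0.000884. In contrast, 3 genes were lower in lhp1-6 seed than in lhp1-6 fruit, where 80.4% of all tested genes were called, 39.3% higher and 41.1% lower. CESA5 averaged 51.8 ± 4.76 TPM in lhp1-6 seed and 75.0 ± 10.1 TPM in lhp1-6 fruit (-0.52, adjusted p = 0.00527). MUCI21 averaged 12.9 ± 0.609 TPM in lhp1-6 seed and 19.1 ± 4.30 TPM in lhp1-6 fruit (-0.51, adjusted p = 0.0121). MUM2 averaged 39.6 ± 6.44 TPM in lhp1-6 seed and 57.4 ± 10.8 TPM in lhp1-6 fruit (-0.52, adjusted p = 0.043), a call that 7 of 17 alternatives lost. PMEI6 was not called (-0.41, adjusted p = 0.242). The comparisons between tissues share their seed libraries with the comparison of the genotypes in seed.

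Levels in fruit were also set against the estimated share of seed RNA. GL2 in fruit was between 13.7% and 25.95% of the mean seed TPM in lhp1-6 and between 7.58% and 35.8% in Col-0. That is 1.65 to 2.37 times the estimated seed share of the same library in lhp1-6 and 1.54 to 2.08 times in Col-0. The ratios to the seed share were 1.87 to 2.20 times in lhp1-6 and 1.17 to 1.84 times in Col-0 for PER36, and 1.71 to 2.31 and 1.12 to 2.19 times for TTG2. In each genotype the 3 fruit libraries had the same order for these 3 genes as for the seed share. GL2 in both genotypes and PER36 in Col-0 are among the genes from which the share was taken. The shared order is thus no test of the share, and whether seed RNA gave these levels was not tested.

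CESA5, MUM2, MUCI21 and PMEI6 behaved otherwise. Their fruit levels were at least 114% of the mean seed TPM in each lhp1-6 fruit library and at least 48.7% in each Col-0 fruit library. That is at least 10.8 times the seed share in lhp1-6, but as little as 3.10 times in Col-0 fruit replicate 1. MUM4 and SBT1.7 lay in between, at 36.3% to 54.8% in lhp1-6 fruit and 24.3% to 48.6% in Col-0 fruit. MYB5 was at 22.7% to 27.2% in lhp1-6 fruit and at 8.27% to 29.6% in Col-0 fruit, or 2.48 to 3.26 times the seed share in lhp1-6 and 1.27 to 2.27 times in Col-0.

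**Figure D5:**
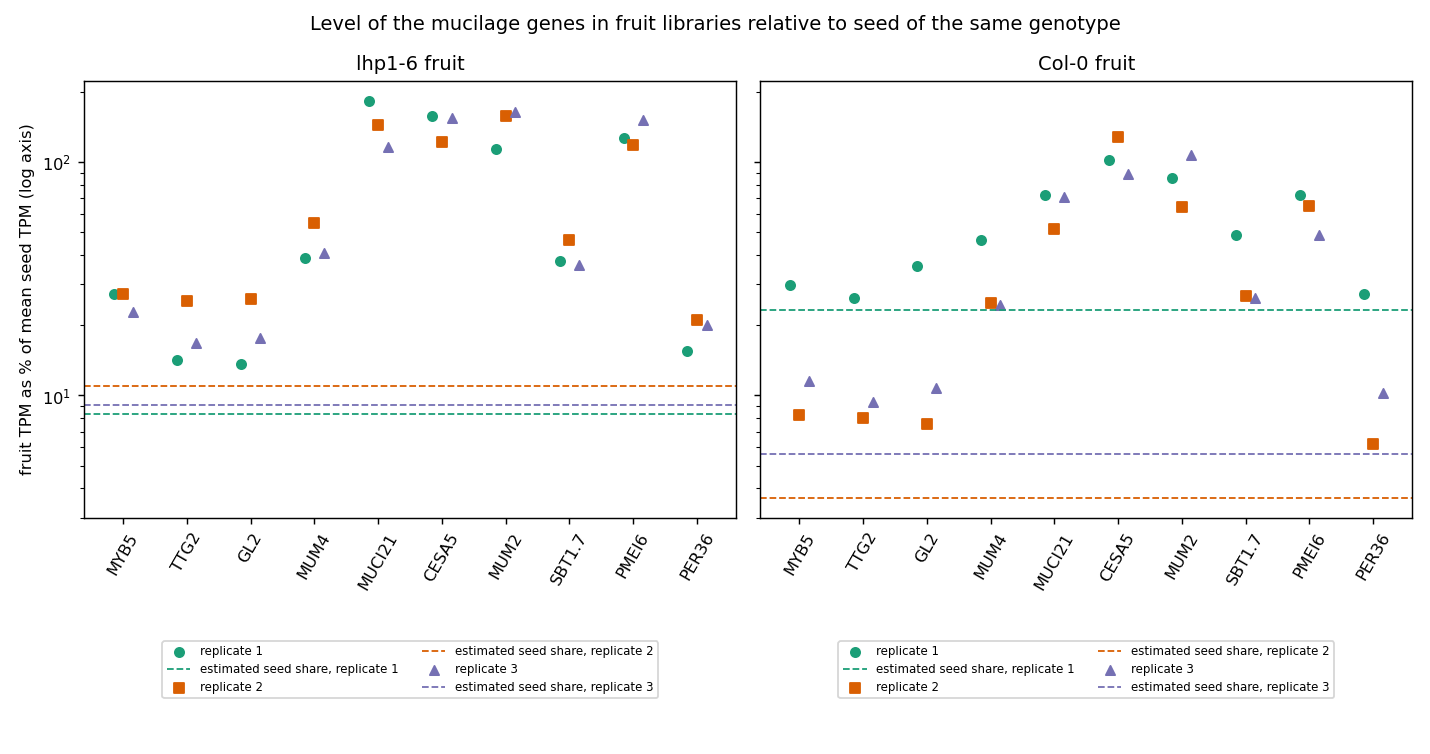
TPM of each mucilage gene in each fruit library as a percentage of the mean seed TPM of the same genotype, on a log axis, with lhp1-6 fruit left and Col-0 fruit right. Dashed lines give the estimated share of seed RNA in each fruit library, 8.32% to 10.97% in lhp1-6 and 3.65% to 23.3% in Col-0; GL2, TTG2, PER36 and, in Col-0, MYB5 lie nearest to them.

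Across 49 other mucilage genes in Col-0, 29 were higher in seed than in fruit, 18 were lower and 2 were not called (29, 16 and 4 without Col-0 fruit replicate 1). For all tested genes the shares were 45.3% higher and 37.7% lower. Without that replicate 83.4% were called in either direction. The 9 genes of modification and adherence had 6 higher, among them the pectin methylesterases PME58 (2.62) and HMS (2.71), the inhibitor PMEI14 (3.69) and the receptor kinase FEI2 (0.90). Of 20 genes of synthesis and secretion 13 were higher, including the glucomannan synthase CSLA2 (1.66), the cellulose synthase CESA9 (2.41), COBL2 (2.13) and the uronic acid transporter UUAT1 (2.20). The 20 regulators split evenly, 10 higher and 10 lower, and those with the smallest adjusted p were lower in seed. They were MYB52 (-5.34), KNAT3 (-2.11), NARS2 (-1.14) and NARS1 (-1.27).

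MYB52 had between 0 and 0.0824 TPM in the 6 seed libraries and between 27.7 and 45.9 TPM in the 6 fruit libraries. In lhp1-6 the counts for the 49 genes were 25 higher, 15 lower and 9 not called, where 39.3% of all tested genes were higher and 41.1% lower. The same 4 regulators led, with MYB52 at -5.15, NARS1 at -2.79, KNAT3 at -2.47 and NARS2 at -1.45.

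TPM are per transcript length, so levels can be set side by side between genes. The order in lhp1-6 seed was SBT1.7 (692 TPM), MUM4 (174), GL2 (62.9), CESA5 (51.8), MUM2 (39.6), MYB5 (33.0), PER36 (24.8), MUCI21 (12.9), TTG2 (12.8) and PMEI6 (5.55). In Col-0 seed it was SBT1.7 (980.1 TPM), MUM4 (288), GL2 (112), PER36 (106), MUM2 (80.6), CESA5 (73.0), MYB5 (37.7), MUCI21 (21.0), TTG2 (15.2) and PMEI6 (13.2). PER36 thus stood at rank 7 in lhp1-6 seed and at rank 4 in Col-0 seed. Neighbours that overlapped were GL2 with CESA5, MUM2 with MYB5 and MUCI21 with TTG2 in lhp1-6 seed, and GL2 with PER36, MUM2 with CESA5 and TTG2 with PMEI6 in Col-0 seed.

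In both fruit groups SBT1.7 (278 TPM in lhp1-6, 331 TPM in Col-0) and MUM4 (77.9 and 91.9 TPM) came first and TTG2 (2.40 and 2.20 TPM) last. CESA5 and MUM2 were at rank 3 and rank 4 in both, and in each genotype MUM4 overlapped CESA5 and CESA5 overlapped MUM2. The 10 genes together summed to between 1032 and 1236 TPM in lhp1-6 seed, 1556 and 1854 TPM in Col-0 seed, 508 and 601 TPM in lhp1-6 fruit, and 516 and 863 TPM in Col-0 fruit.

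For each mucilage gene the tested gene with the nearest pattern over the 12 libraries was found by the root mean square difference of centred log2(TPM + 1). The nearest gene to GL2 was HMS (AT1G23200, difference 0.11), itself a mucilage gene, with 799 TPM in lhp1-6 seed, 1442 TPM in Col-0 seed, 151 TPM in lhp1-6 fruit and 267 TPM in Col-0 fruit. SBT1.7 had the closest match, AT4G25870 (0.06). MUM4 was nearest to AT1G08280 (0.09), CESA5 to PDLP1 (0.10), TTG2 to AT2G01913 (0.10), MUCI21 to AT5G65850 (0.13) and MYB5 to AT5G50090 (0.14). MUM2 with AT3G20450 (0.17), PMEI6 with MUB5 (0.23) and PER36 with AT5G52500 (0.30) had no gene as near. Some matches were low genes, whose pattern is flattened by the pseudocount. Group means ran from 0.470 to 1.46 TPM for AT3G20450, from 0.848 to 2.57 TPM for MUB5 and from 2.23 to 3.48 TPM for AT5G65850.

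The genes beside the 10 in chromosome order were also read. Of these 20 neighbours, all tested, 3 were lower in lhp1-6 seed by limma, where 10.2% of all tested genes were called lower. None was higher and 17 were not called (at an unadjusted p under 0.05, 5 were lower and 0 higher). Of the 3, 2 flank PER36: XERO1, a dehydrin gene, averaged 12.8 TPM in lhp1-6 seed and 20.6 TPM in Col-0 seed (-0.66, adjusted p = 0.0301), and AT3G51000 averaged 255 TPM in lhp1-6 seed and 344 TPM in Col-0 seed (-0.43, adjusted p = 0.0212). The third, MAPKKK7 (-0.61, adjusted p = 0.0395), overlaps MYB5, and HEI10 overlaps MUM4. As the strand setting of the counting is not given in the sources used here, reads of overlapping genes, these pairs among them, may not be separated. After median-of-ratios rescaling limma called none of the 20 neighbours in seed, with 4 lower and 1 higher at an unadjusted p under 0.05.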

How the data were processed

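The submitters' processing notes name TAIR10 and the tools cutadapt 1.9.1, STAR 2.5 and, without a version, featureCounts. The authors deposited gene-level TPM, 1 table per library with 26925 genes, summing to between 977751 and 986706 over the listed genes. TPM keep no sequencing depth, so beyond the minimum read number in the labels the depth per library is unknown, and no counting intervals were made. No 2 libraries held the same values (0% of genes above 0 in both had exactly equal TPM in any pair).

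TPM were taken to log2 after a pseudocount of 1 was added. The 19946 genes that reached 1 TPM in 3 or more libraries were tested with limma 3.58.1 (R 4.3.3). All 12 libraries entered 1 fit with a mean per group and variances that follow the mean expression. Benjamini-Hochberg adjustment ran over all tested genes, with a threshold of 0.05. Fold changes on this scale understate the change of low genes. The steps were tested on simulated data.

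The members and gene lists were chosen with earlier results of these data known. Named genes were the 10 members, LHP1, the 6 endothelium markers, up to 4 called genes per other mucilage list and comparison by smallest adjusted p, and the nearest gene in pattern to each member. CRU2, CRU3, EPR1, ZOU, the neighbours named and the trichome and fruit markers named were chosen after their values were seen. Lists were described by counts and medians, without set tests. Gene names and neighbours were looked up in the annotation of TAIR10.1, where 26715 identifiers matched, and no coordinates are given as the build differs.

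Same-numbered seed and fruit libraries lay off their group means in the same direction, with correlations (over genes) of 0.311, 0.202 and 0.128 in lhp1-6 and 0.192, 0.113 and 0.185 in Col-0. The numbers were therefore taken to pair seed and fruit within a genotype. The main fit leaves this pairing out, and a blocked value stands beside a result across tissues where it changes the call. The estimated seed share was multiplied by the genotype's mean seed TPM and subtracted from each fruit library. The alternatives tried were a pseudocount of 0.1 or 5, a filter of 5 TPM or none, no variance trend, and median-of-ratios or quantile scaling. Others were TPM without storage and organelle genes, the 6 libraries of a comparison alone, the replicate block and the seed share taken off fruit. Scaling to endothelium markers was chosen after seeing the data. Each library was also left out in turn, in the comparisons that involve its group. The genotypes in seed were thus not compared again without a fruit library, nor those in fruit without a seed library.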

Additional observations from a re-analysis of the deposited data

Results flagged for a closer look

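MUCI21, the xylosyltransferase, is listed because the effect of lhp1-6 differed between seed and fruit in a test of the difference itself. The change in seed minus the change in fruit was -1.11, with a mean of 12.9 TPM in lhp1-6 seed against 21.0 TPM in Col-0 seed, and 19.1 TPM in lhp1-6 fruit against 13.6 TPM in Col-0 fruit. The adjusted p was 0.0205, and 0.0563 with same-numbered seed and fruit libraries of a genotype as a block. All 3 lhp1-6 seed libraries were below all 3 Col-0 seed libraries, and in fruit 1 lhp1-6 library lay below the highest Col-0 library.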

How the results depend on the processing

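Of 900 values recomputed for single mucilage genes, 804 kept their direction and their side of the threshold, 58 lost the call, 21 gained it and 17 turned their sign. The share of all tested genes called under the same setting is in brackets. Of the 10, 5 were called in seed with TPM as deposited (12.1%). That number was 9 with the 6 seed libraries alone (31.3%), 3 without the filter (9.8%) and 2 after quantile scaling (5.36%). It was 2 without storage and organelle genes (5.93%), 1 after median-of-ratios rescaling (4.96%) and 1 after scaling to endothelium markers (2.06%). With single seed libraries left out it was from 1 to 4 (3.2% to 12.5%). In fruit, with 1 called (14.9%), it was 0 with a pseudocount of 5 (15.6%), 0 without the filter (12.6%), 0 without the variance trend (14.5%), 0 with the 6 fruit libraries alone (4.7%), 2 after quantile scaling (1 higher and 1 lower, 15.9%), 3 with the seed share taken off (23.9%), and from 0 to 4 with single libraries left out (8.91% to 28.5%). At each 0, limma had 1 gene lower and 0 or 1 higher at an unadjusted p under 0.05. For the difference between tissues, with 1 called (5.51%), it was 3 with the seed share taken off (15.2%) and from 0 to 7 with single libraries left out (2.14% to 20.1%). The counts for seed against fruit stayed within 7 and 8 in Col-0 and within 8 and 9 in lhp1-6 under all alternatives run.

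With the replicate number as a block across genotypes, 3 genes were called in seed (3.95%) and 0 in fruit (8.34%), where 1 was lower and 1 higher at an unadjusted p under 0.05. With the number as a block within each genotype, 0 were called in the difference (2.49%), where 2 were lower and 0 higher at an unadjusted p under 0.05. Between genotypes same-numbered libraries did not deviate together in every pair (correlations of 0.421, -0.03 and 0.125 in seed and -0.25, -0.40 and 0.06 in fruit), so there the number is no more than a label. The block changed no call for seed against fruit.

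Signs turned after quantile scaling for CESA5, to 0.000646 in fruit and to 0.0410 in the comparison of seed with fruit in Col-0. Scaling to endothelium markers shifted the change in seed of every gene by the same amount. It moved the median of all tested genes from -0.15 to 0.58. With that shift the signs turned in seed for MYB5 (0.54), TTG2 (0.49), CESA5 (0.24), SBT1.7 (0.22), MUCI21 (0.0681) and MUM4 (0.000773). With single libraries left out, changes in fruit ran from -0.0539 to 0.53 for TTG2, from -0.87 to 0.19 for GL2, from -0.34 to 0.12 for MUM4, from -0.16 to 0.10 for CESA5 and from -0.35 to 0.0925 for SBT1.7. CESA5 for seed against fruit in Col-0 ran from -0.19 to 0.0661, and the GL2 difference from -1.02 to 0.0371. The causes of the turns under the other settings were not tested. With 3 libraries per group and no depth, small changes of genes at a few TPM could not be resolved.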

Other observations

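GL2 also works in leaf hairs, so 4 trichome markers were read in the same libraries. Of the 3 tested, none was called in lhp1-6 seed, and in lhp1-6 fruit TRY was lower and GL3 (-0.12) and MYB23 (0.34) were not called. TRY, a small MYB protein that holds back hair formation, had 1.40, 2.27 and 1.61 TPM in lhp1-6 seed, against 2.32, 2.84 and 2.497 TPM in Col-0 seed. In fruit TRY had 8.56, 6.96 and 7.55 TPM in lhp1-6, against 23.98, 29.97 and 22.6 TPM in Col-0, and fell by 1.60 on the log2 scale (adjusted p = 8.95e-05). Without Col-0 fruit replicate 1 TRY changed by -1.64, and MYB23 was called higher (0.56, adjusted p = 0.00673) at no more than 2.16 TPM in any library. The trichome factor GL1 was listed at 0 in all seed libraries and did not exceed 0.0641 TPM in fruit.

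Of the 5 fruit wall and valve margin markers, 1 was higher in lhp1-6 fruit, 2 were lower and 2 were not called. ADPG1, a polygalacturonase of the opening fruit, had 301, 244 and 266 TPM in lhp1-6 fruit, against 59.5, 83.7 and 90.7 TPM in Col-0 fruit, and rose by 1.80 (adjusted p = 0.000207). NST3, a NAC factor of secondary walls, had 31.5, 19.6 and 33.0 TPM in lhp1-6 fruit, against 41.2, 56.5 and 61.3 TPM in Col-0 fruit (-0.91, adjusted p = 0.0104). FUL, a MADS factor of the valves, had 169.7, 162 and 142 TPM in lhp1-6 fruit, against 186, 252 and 296 TPM in Col-0 fruit (-0.61, adjusted p = 0.0241). Without Col-0 fruit replicate 1 these 3 kept their calls, with changes of 1.62, -1.08 and -0.79.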
